A study of Mus musculus with 9 samples.

Results

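Genes that encode enzymes of prohormone cutting and peptide trimming were followed in 9 RNA-seq libraries of sorted mouse islet cells. They were the 7 convertase genes Pcsk1, Pcsk2, Furin, Pcsk4, Pcsk5, Pcsk6 and Pcsk7, the carboxypeptidase genes Cpe and Cpd, and the amidating enzyme gene Pam. The members were a list of symbols, and all 10 were found among the 55536 genes of the deposited tables. Islets came from C57B/L6 mice aged 12 weeks, were cultured overnight, dispersed and sorted by FACS on surface proteins, with no other treatment or allele named. Cells labelled CD24low CD71- made up the alpha-enriched gate, CD24low CD71+ cells the beta-enriched gate and CD24high cells the delta-enriched gate, with 3 libraries from each. The labels do not say whether replicates came from separate animals or pools, so the tests measure the spread between these libraries, which may be technical.

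Peptide hormones are made as longer precursors that become active only after they are cut. In secretory granules the endoproteases PC1/3, encoded by Pcsk1, and PC2, encoded by Pcsk2, cut behind pairs of basic residues. Carboxypeptidase E then removes the basic residues left at the end, and Pam converts a C-terminal glycine into an amide on peptides that carry one, such as amylin and pancreatic polypeptide. In beta cells PC1/3 and PC2 convert proinsulin to insulin, and in alpha cells PC2 releases glucagon from proglucagon. The other convertases work mainly in the trans-Golgi network, at the cell surface or outside the cell, on growth factor precursors, receptors and matrix proteins.

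Library totals ran from 5663141 to 9529920 expected counts. The share of a single ribosomal RNA locus was 34.4% in beta replicate 2 and 3.15% to 5.37% elsewhere. The labelled cell types were checked by the summed TPM (a relative level corrected for transcript length) of marker lists. The 8 alpha markers summed to 54752 to 62788 TPM in the alpha-enriched libraries, against at most 3333 elsewhere. The 8 beta markers summed to 58361 to 106106 in the beta-enriched libraries, against 5262 to 8498 in alpha and 4084 to 5867 in delta. Different genes made up most of these lower sums. The amylin gene Iapp stood at 1093 to 1807 TPM in alpha and 3969 to 4924 in delta. The insulin gene Ins2 stood at 3745 to 5996 TPM in alpha and 86.0 to 802 in delta. The 7 delta markers summed to 10323 to 20063 in the delta-enriched libraries, against at most 176 elsewhere. Ppy and Pyy, listed as PP cell markers, together stood at 4873 to 6157 TPM in alpha, 88.4 to 143 in beta and 4669 to 9354 in delta. They differed in pattern. Ppy alone ran from 3188 to 3991 TPM in alpha and 1764 to 3580 in delta, and Pyy from 1685 to 2166 and 2905 to 5774. The 12 acinar markers summed to 1454 TPM in delta replicate 3 and 109 to 126 in the other delta libraries, to 189 in alpha replicate 1 against 34.0 and 55.3 in the other alpha libraries, and to at most 28.8 in beta. The 6 duct markers ran from 196 to 373 TPM in alpha, 78.7 to 81.8 in beta and 32.2 to 94.1 in delta. The 5 Schwann markers summed to 10.6 to 16.0 TPM over all libraries. Endothelial, immune and erythroid lists stayed at or under 4.12 TPM, with the endothelial marker Plvap, the immune markers Ptprc, Adgre1 and Cd3e, and the haemoglobin genes Hbb-bs and Hba-a1 at 0 in every library. The 6 mesenchymal markers are given beside Pcsk5 below.

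Pcsk1 was far higher in the beta-enriched subset than in the others. Levels between libraries are given as CPM, read counts scaled to a common library size with TMM factors. Pcsk1 (ENSMUSG00000021587, chromosome 13, 75089826 to 75134861 in GRCm38) stood at 832, 933 and 722 CPM in beta replicates 1 to 3. In the alpha-enriched libraries it stood at 138, 83.2 and 103 CPM, and in the delta-enriched libraries at 73.7, 70.8 and 88.1. Every beta library lay far above every other library, while alpha and delta overlapped. Beta exceeded alpha 7.67-fold, a log2 difference of 2.94 with an SE of 0.17 (edgeR's quasi-likelihood test, Benjamini-Hochberg adjusted p = 2.42e-08). Beta exceeded delta 10.7-fold, a log2 difference of 3.42 with an SE of 0.18 (adjusted p = 6.27e-09). In both comparisons Pcsk1 stayed past the threshold under all 19 other settings. In bulk libraries fewer cells of a type and less RNA per cell cannot be told apart. The comparisons share libraries, since each subset enters a pair of them, so they are given side by side and not as independent evidence.

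The low Pcsk1 level outside the beta gate was set beside the transcripts of beta cell hormones. As a percentage of the beta-enriched mean CPM, Pcsk1 was at 16.7%, 10.0% and 12.4% in alpha replicates 1 to 3, and Ins2, an insulin gene, at 10.7%, 7.81% and 8.38%. Alpha replicate 1 was highest in both, and Pcsk1 was the larger of the pair in each alpha library. In TPM replicate 3 was instead highest for Ins2, at 5041, 3745 and 5996 in replicates 1 to 3, where Pcsk1 was at 14.5, 9.45 and 14.3. In delta replicates 1 to 3 Pcsk1 was at 8.89%, 8.53% and 10.6%, while Ins2 was at 0.252%, 0.456% and 1.503%. The other insulin gene, Ins1, was at 0.361% to 1.77% in delta, and Iapp, which encodes amylin, at 34.3% to 42.3%. In all 3 delta libraries the Pcsk1 percentage thus exceeded those of both insulin genes and lay under that of Iapp. What part insulin-expressing cells had in the Pcsk1 level of the alpha gate was not tested.

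**Figure D1:**
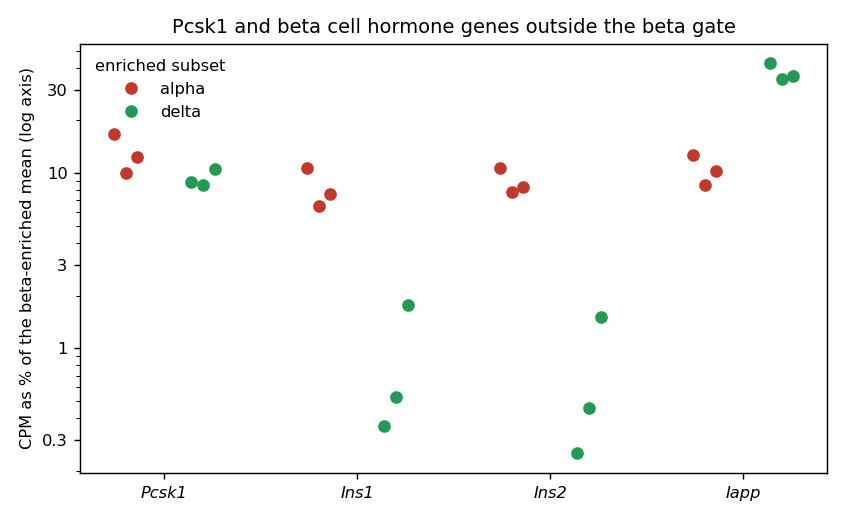
Level of Pcsk1 and of the beta cell hormone genes Ins1, Ins2 and Iapp in the 3 alpha-enriched and 3 delta-enriched libraries, as a percentage of the beta-enriched mean CPM on a log axis (1 point per library). In delta the Pcsk1 points sit at 8.53% to 10.6% and those of Ins2 at 0.252% to 1.503%.

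Between alpha and delta the Pcsk1 difference was small and unstable. The mean was 108 ± 27.9 CPM in alpha and 77.6 ± 9.29 in delta (SD, n = 3 each), with a log2 fold change of 0.48 (SE 0.16, adjusted p = 0.0497). The call was lost under 11 of 19 other settings. Among them, leaving out alpha replicate 1 gave 0.28 (adjusted p = 0.188) and leaving out alpha replicate 3 gave 0.52 (adjusted p = 0.0813). The loss of delta replicate 1 gave 0.45 (adjusted p = 0.187) and of delta replicate 2 gave 0.42 (adjusted p = 0.188). Since all libraries share the estimate of spread, dropping beta replicate 1 or 2 also ended the call (adjusted p = 0.0734 and 0.0549).

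The sequences before the starts of Pcsk1 and Pcsk2 are shown because these genes encode the granule endoproteases, whose levels are compared here. Both are RefSeq sequence of GRCm38.p6 on the plus strand, printed up to the base before the first annotated start. Capitals mark TGACG on either strand, the core of the cAMP response element, whose full palindrome is TGACGTCA. The Pcsk1 stretch is chr13:75089607-75089825 and the Pcsk2 stretch chr2:143545883-143546132.
Pcsk1: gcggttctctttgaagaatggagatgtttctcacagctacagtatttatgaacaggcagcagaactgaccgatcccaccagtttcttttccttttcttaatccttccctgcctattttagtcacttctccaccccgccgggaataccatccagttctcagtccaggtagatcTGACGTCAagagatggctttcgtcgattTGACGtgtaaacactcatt
Pcsk2: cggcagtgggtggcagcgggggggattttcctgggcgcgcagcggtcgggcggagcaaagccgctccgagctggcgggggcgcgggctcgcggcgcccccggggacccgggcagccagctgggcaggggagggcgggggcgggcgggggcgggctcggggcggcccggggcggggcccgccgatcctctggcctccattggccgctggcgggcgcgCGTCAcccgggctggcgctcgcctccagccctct
The Pcsk1 stretch held the full palindrome once, beginning 78 bases before the RefSeq start, and a further TGACG 50 bases before it. The Pcsk2 stretch held a single TGACG, on the minus strand, beginning 34 bases before the start, and no palindrome. RefSeq promoters were found for 8 of the 10 members, and among these the palindrome stood in the window of 250 bases upstream of Pcsk1 alone. Of 32851 promoter windows of that length, 508 (1.55%) held TGACGTCA, and 17.8% held TGACG on either strand, which counts the palindrome too. Over those 250 bases GC content was 46.8% for Pcsk1 and 82.4% for Pcsk2, against a median of 52.4% for all windows. These matches describe letters and were not tested for binding.

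Pcsk2 was abundant in all 3 subsets and differed by little. Pcsk2 (ENSMUSG00000027419, chromosome 2, 143546156 to 143816285) stood at 3205, 2982 and 2709 CPM in alpha, 2421, 2512 and 2268 in beta, and 2171, 2193 and 2247 in delta. All alpha libraries were above all beta libraries, and the lowest beta library was just above the highest delta library. Beta was below alpha by a log2 difference of -0.30 (SE 0.09, adjusted p = 0.0126). That call was lost on log2(TPM + 1) (-0.36, adjusted p = 0.448), on log2(TPM + 0.1) (-0.36, adjusted p = 0.434), after dropping alpha replicate 1 (-0.25, adjusted p = 0.0642) or beta replicate 3 (-0.26, adjusted p = 0.0812). Alpha exceeded delta (0.43, SE 0.09, adjusted p = 0.00117), a call lost only on the 2 TPM scales (adjusted p = 0.0773 and 0.0722). Between beta and delta the difference did not pass (0.12, adjusted p = 0.308), with a 95% interval from -0.06 to 0.30. Its antisense neighbours Pcsk2os1 and Pcsk2os2 held 2389 and 3178 counts over all libraries. The kit marks strand per the labels' protocols, but no source used here states whether the counting took strand into account.

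Per transcript length, Pcsk1 took a larger share of the granule endoprotease transcripts in every beta library than in any other. PC2 transcripts outnumbered PC1/3 transcripts in every library. The ratio of Pcsk2 to Pcsk1 TPM was 23.4, 34.5 and 27.9 in alpha replicates 1 to 3, 3.06, 2.78 and 3.23 in beta, and 27.0, 26.8 and 28.2 in delta. Pcsk1 made up 24.9% ± 1.41 of the Pcsk1 plus Pcsk2 TPM in beta (SD, n = 3), 3.46% ± 0.639 in alpha and 3.53% ± 0.0923 in delta. Beta did not overlap with either subset, and an exact two-sided permutation test gave p = 0.1 for beta against alpha and for beta against delta, the smallest p that 3 against 3 libraries allow. Alpha and delta overlapped (exact permutation p = 0.8).

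**Figure D2:**
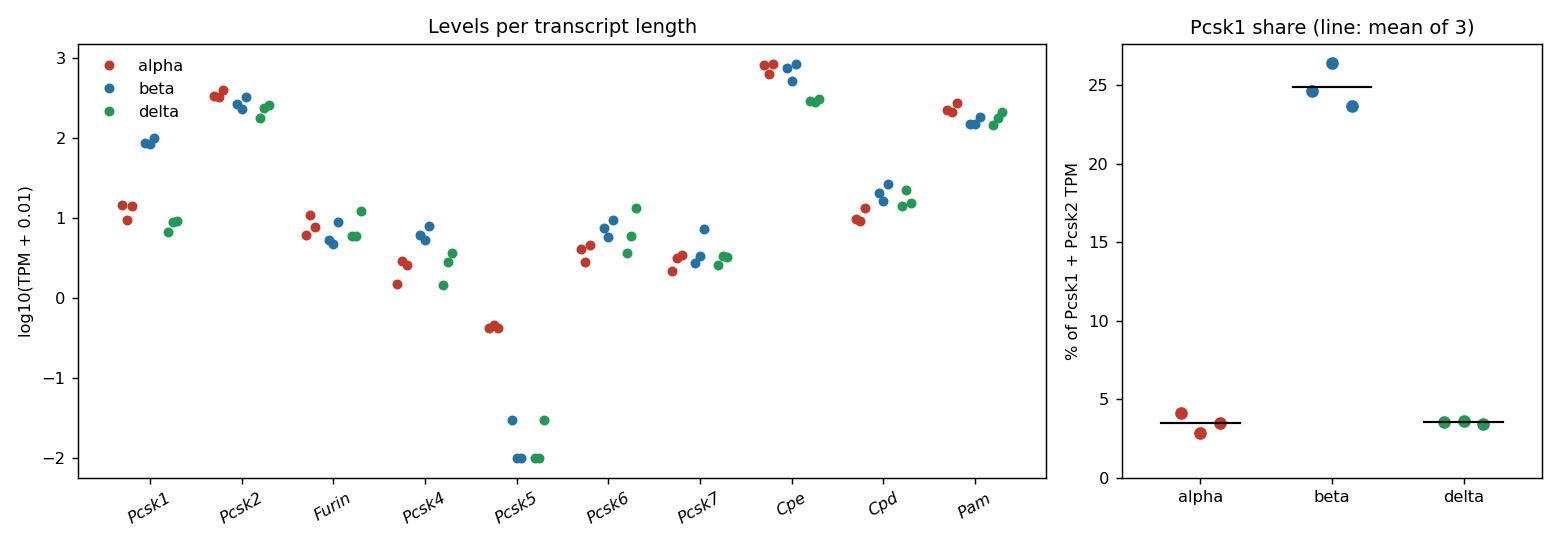
Left, TPM of the 10 members on a scale of log10(TPM + 0.01), with 1 point per library in alpha, beta and delta; right, Pcsk1 as a percentage of Pcsk1 plus Pcsk2 TPM, with the mean of 3 libraries as a line. Cpe, Pcsk2 and Pam stand highest in every subset, and the Pcsk1 share is 23.7% to 26.4% in beta and at most 4.10% elsewhere.

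Per transcript length the members spanned a wide range within each subset, and granule enzymes led it. Cpe ranked highest in all subsets, at a mean of 775 TPM in alpha, 709 in beta and 299 in delta. Pcsk2 followed at 355, 278 and 228 TPM, and Pam at 239, 163 and 180. These levels did not overlap with each other in alpha or in beta, while in delta the libraries of Pcsk2 and Pam overlapped. The sum of Cpe, Pcsk2 and Pam came to 96.8% to 97.3% of the TPM of all 10 members in alpha, 88.3% to 90.0% in beta and 93.2% to 94.7% in delta. Pcsk1 was next in beta at 91.5 TPM, with no overlap with Cpd (21.2 TPM), and next in alpha at 12.8 TPM, where its libraries overlapped with those of Cpd (10.8 TPM). In delta, Cpd (17.4 TPM) stood above Pcsk1 (8.32 TPM) with no overlap. Among the 7 convertases, Pcsk1 and Pcsk2 together took 89.3% to 96.1% of the TPM in any library. All 10 members summed to 1209 to 1583 TPM in alpha, 1025 to 1525 in beta and 656 to 845 in delta. The lowest beta sum was in replicate 2, where a single ribosomal RNA locus held 34.4% of counts. What this locus did to TPM there was not tested. The 7 hormone genes Gcg, Ins1, Ins2, Sst, Ppy, Pyy and Iapp summed to 63935 to 75392, 58445 to 105996 and 21218 to 34596 TPM. For every 1000 TPM of these substrates there were thus 18.9 to 22.1 TPM of enzymes in alpha, 14.4 to 22.4 in beta and 21.9 to 30.9 in delta, and these ranges overlapped.

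All 10 members passed the filter on low counts, Pcsk5 through the alpha-enriched libraries. Between beta and alpha, 7 of 10 members passed the test, 4 higher and 3 lower in beta. Pcsk5 is counted among the 3 lower here and among the 4 higher in alpha against delta below. Since it entered through its high subset, those calls describe it and are not support. Over all 15896 tested genes 26.6% passed, 14.8% higher and 11.9% lower, and 33.6% of genes at a mean of 10 CPM or more did. The median log2 fold change of the members was 0.02, against -0.02 over all genes. Between beta and delta 4 of 10 members passed, 3 higher and 1 lower in beta, against 30.6% of all genes, 15.4% higher and 15.3% lower, and 37.2% of genes at a mean of 10 CPM or more. The members' median was 0.11, against -0.02. Between alpha and delta 6 of 10 passed, 4 higher and 2 lower in alpha, against 24.3%, 11.0% and 13.3% of all genes and 29.4% at a mean of 10 CPM or more. The median was 0.05, against -0.01. On the TPM scales the count of members fell to 4 for beta against alpha and to 2 for alpha against delta, with Pcsk5 in both.

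**Figure D3:**
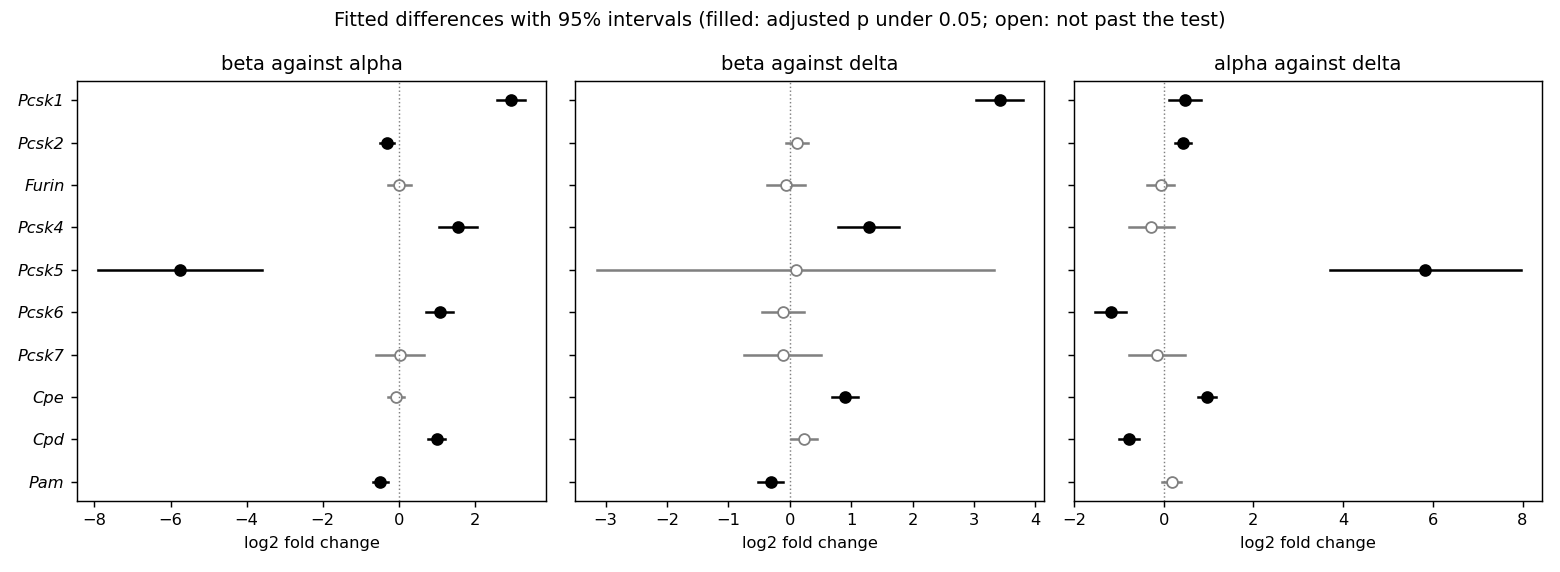
Log2 fold change of the 10 members in the 3 comparisons with 95% intervals from the edgeR fit; filled points passed at an adjusted p under 0.05 and open points did not. Each panel has its own horizontal scale, and 7, 4 and 6 of 10 points are filled from left to right. Pcsk5, which entered the fit through the alpha libraries, is filled for beta against alpha and for alpha against delta.

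Furin and Pcsk7, convertases of the general secretory route, were low and passed in no comparison. Furin, the ubiquitous convertase of the trans-Golgi network (ENSMUSG00000030530), ran from 45.1 to 51.5 CPM in alpha, 43.5 to 56.9 in beta and 42.5 to 58.5 in delta. The subsets overlapped throughout, with log2 fold changes of 0.01, -0.06 and -0.07 and 95% intervals within -0.38 and 0.32. Pcsk7, a membrane-bound convertase, ran from 9.34 to 13.8 CPM in alpha, 9.76 to 15.1 in beta and 7.37 to 17.4 in delta. Its intervals were wide, from -0.59 to 0.66 for beta against alpha. Pcsk7 overlaps Rnf214 on the other strand, which held 3024 counts over all libraries against 279.9 in alpha, 235.7 in beta and 284.6 in delta for Pcsk7, so its values are uncertain if strand was not used in counting.

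Pcsk6, which encodes the matrix-bound convertase PACE4 (ENSMUSG00000030513, chromosome 7, 65861734 to 66050386), was low in alpha. It stood at 17.8, 14.9 and 18.6 CPM in alpha, 38.1, 30.2 and 39.6 in beta, and 41.5, 34.0 and 40.5 in delta. All alpha libraries lay under all others, and beta and delta overlapped. Beta exceeded alpha 2.11-fold (log2 difference 1.08, SE 0.17, adjusted p = 9.14e-05), and delta exceeded alpha 2.26-fold (alpha minus delta -1.18, SE 0.17, adjusted p = 3.84e-05). Both calls were lost on log2(TPM + 1) (adjusted p = 0.144 and 0.211) and on log2(TPM + 0.1) (adjusted p = 0.142 and 0.220). The effective length that the authors' RSEM run gave Pcsk6 varied from 1530 to 4125 bases between libraries, and its TPM in delta ran from 3.66 to 13.4 where its CPM ran from 34.0 to 41.5.

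Pcsk4, a convertase known mainly from male germ cells (ENSMUSG00000020131, chromosome 10, 80321283 to 80329498), was highest in beta. The beta libraries stood at 25.04, 23.99 and 25.4 CPM, alpha at 6.04, 10.2 and 9.17, and delta at 8.19, 12.2 and 10.2. The beta libraries were close to each other and above all others, and alpha and delta overlapped. Beta exceeded alpha 2.94-fold (1.55, SE 0.23, adjusted p = 6.74e-05) and delta 2.44-fold (1.28, SE 0.23, adjusted p = 0.000351), under every other setting too. Alpha against delta did not pass (-0.27, adjusted p = 0.470).

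Pcsk5, which encodes the convertase PC5/6 (ENSMUSG00000024713, chromosome 19, 17432319 to 17837632), was detected almost entirely in alpha and at a low level. It had 36, 30 and 20 counts in alpha replicates 1 to 3, or 4.10, 3.78 and 2.82 CPM. In beta it had 1 count in replicate 1 and 0 in the others, and in delta 1 count in replicate 3 and 0 in the others. The ratio of alpha to beta was 71.1 (95% exact counting interval 12.4 to 2841) and of alpha to delta 78.5 (13.7 to 3134), intervals that cover counting error only. Pcsk5 entered the edgeR fit through the alpha libraries, where it is high, so its calls against beta (adjusted p = 0.000341) and delta (adjusted p = 0.000322) are given as a description and not as support. In TPM it was only 0.410 to 0.450 in alpha. The 6 mesenchymal markers Col1a1, Col1a2, Col3a1, Pdgfrb, Dcn and Lum were also highest in this gate, summing to 1.47, 6.80 and 2.74 TPM in alpha replicates 1 to 3, 0.01 to 0.06 in beta and 0 to 0.240 in delta, and all 6 were detected in alpha, 2 in beta and 1 in delta. Pcsk5 CPM was highest in alpha replicate 1, where that sum was lowest. In TPM, the unit of the sum, Pcsk5 was highest in alpha replicate 2 (0.450, against 0.410 in replicates 1 and 3), where the sum was highest. The 6 duct markers were highest in alpha too, at 196 to 373 TPM, against 78.7 to 81.8 in beta and 32.2 to 94.1 in delta. The part of mesenchymal or duct cells in the Pcsk5 counts was not tested.

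**Figure D4:**
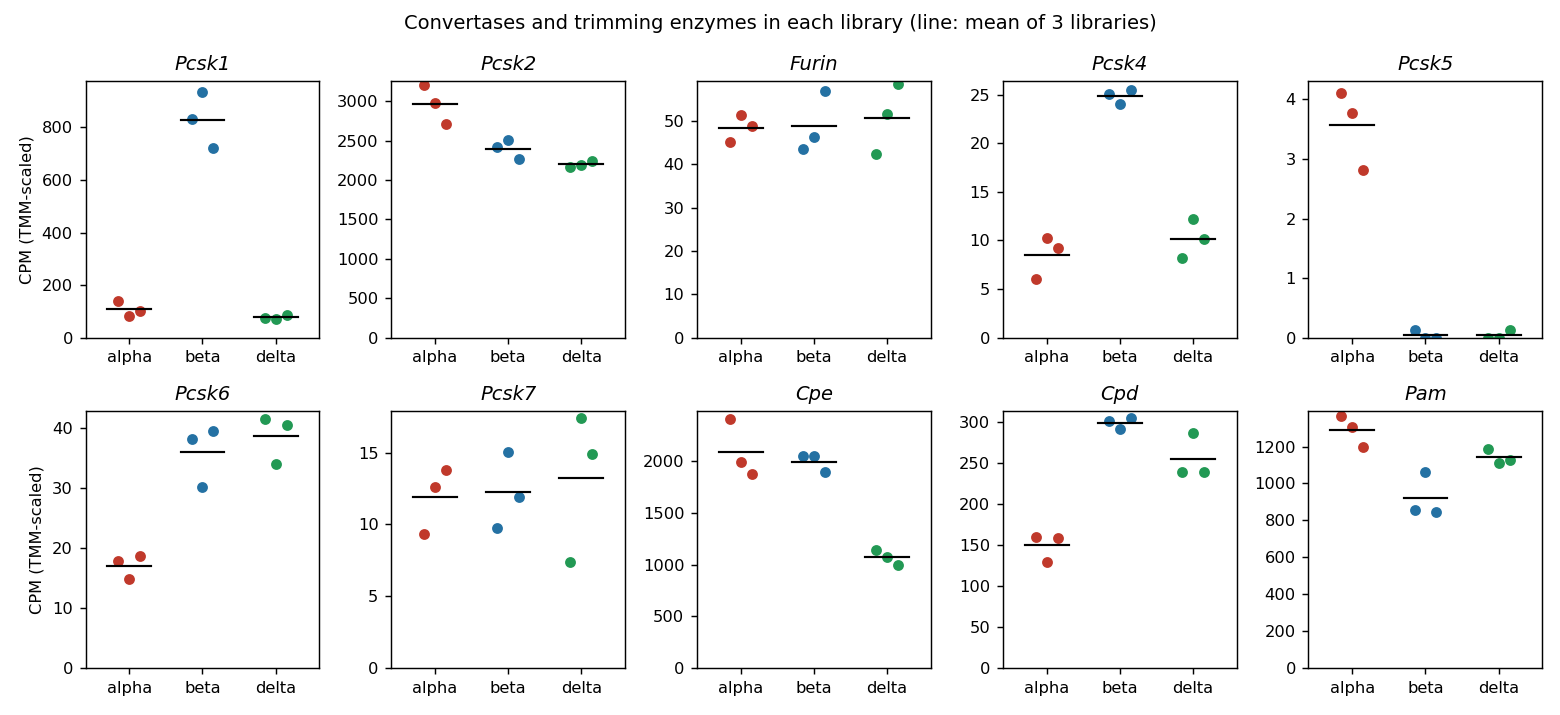
CPM of each member in the 3 libraries of each subset, with the mean as a line and a linear axis from 0 in every panel. Pcsk1 and Pcsk4 are high in beta, Pcsk5 is seen in alpha at 2.82 to 4.10 CPM, Pcsk6 and Cpd are low in alpha, and Cpe is low in delta.

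Cpe and Cpd differed in pattern. Cpe, the granule carboxypeptidase that trims basic residues (ENSMUSG00000037852, chromosome 8, 64592542 to 64693054), stood at 2414, 1992 and 1873 CPM in alpha, 2052, 2047 and 1893 in beta, and 1144, 1069 and 998 in delta. Alpha and beta overlapped, and every delta library lay well under them. Beta exceeded delta 1.87-fold (log2 fold change 0.90, SE 0.10, adjusted p = 1.63e-06) and alpha exceeded delta 1.96-fold (0.97, SE 0.10, adjusted p = 9.77e-07), in every other setting too. Beta against alpha did not pass (-0.07, adjusted p = 0.691), with a 95% interval from -0.28 to 0.14.

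Cpd, the related carboxypeptidase that cycles through the trans-Golgi network (ENSMUSG00000020841, chromosome 11, 76778424 to 76847018), was lowest in alpha. It stood at 160, 130 and 159 CPM in alpha, 300.5, 292 and 304 in beta, and 239, 286 and 238 in delta. The subsets did not overlap, though delta replicate 2 came close to beta. Beta exceeded alpha 1.998-fold (log2 difference 0.998, SE 0.10, adjusted p = 9.90e-07). Alpha was below delta (-0.77, SE 0.10, adjusted p = 2.36e-05), a call lost on log2(TPM + 1) (adjusted p = 0.133) and log2(TPM + 0.1) (adjusted p = 0.132). Beta against delta did not pass (0.23, adjusted p = 0.102) but did without delta replicate 2 (0.33, adjusted p = 0.0237). Per transcript length Cpe exceeded Cpd 64.8-fold to 84.6-fold in alpha, 31.8-fold to 36.8-fold in beta and 12.9-fold to 20.8-fold in delta, ranges that did not overlap.

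Pam, the copper-dependent enzyme of C-terminal amidation (ENSMUSG00000026335, chromosome 1, 97795114 to 98095646), was lowest in beta. It stood at 1365, 1306 and 1199 CPM in alpha, 856, 1061 and 843 in beta, and 1186, 1109 and 1129 in delta. All beta libraries lay under all others, with beta replicate 2 closest to delta. Pam was lower in beta than in alpha (-0.49, SE 0.10, adjusted p = 0.000889), a call lost on log2(TPM + 1) (adjusted p = 0.164) and log2(TPM + 0.1) (adjusted p = 0.1505). Against delta it was lower by less (-0.31, SE 0.10, adjusted p = 0.0202). That call was lost under 6 of 19 other settings, among them leaving out beta replicate 1 (-0.26, adjusted p = 0.114), beta replicate 3 (-0.24, adjusted p = 0.125) or delta replicate 3 (-0.31, adjusted p = 0.0518). On log2(TPM + 1) the difference was -0.13 (adjusted p = 0.783) and on log2(TPM + 0.1) -0.13 (adjusted p = 0.774). With offsets for the effective length it was -0.27 (adjusted p = 0.0785). Alpha against delta did not pass (0.18, adjusted p = 0.208), although the lowest alpha library stood above the highest delta library.

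The genes for the binding proteins of the granule convertases were lower in beta than in alpha. Scg5 encodes 7B2, which proPC2 needs to mature, and stood at 527, 470 and 397.3 CPM in alpha, 338, 360 and 294 in beta, and 397.3, 352 and 372 in delta. Its level in beta was below that in alpha (log2 difference -0.49, SE 0.11, adjusted p = 0.00216), did not pass against delta (-0.18, adjusted p = 0.243), and was higher in alpha than in delta (0.32, SE 0.11, adjusted p = 0.0408). The first call was lost on log2(TPM + 1) and log2(TPM + 0.1) (adjusted p = 0.170 and 0.154). The alpha against delta call was lost there too (adjusted p = 0.125 and 0.116). It was also lost with offsets for the effective length (adjusted p = 0.0536) and without both beta replicate 2 and delta replicate 3 (adjusted p = 0.125). The alpha against delta call of Scg5 was lost without any 1 of alpha replicates 1 and 2, beta replicates 1 and 2 and delta replicates 2 and 3, with adjusted p from 0.0529 to 0.193. Pcsk1n encodes proSAAS, an inhibitor of PC1/3, and stood at 344, 310 and 284 CPM in alpha, 124, 169 and 170 in beta, and 158, 277 and 188 in delta. Pcsk1n was lower in beta than in alpha (-1.02, SE 0.20, adjusted p = 0.00273), the reverse of Pcsk1 itself. Alpha against delta missed the threshold (0.59, SE 0.20, adjusted p = 0.0501). It passed with DESeq2, other scaling factors, other filters on low counts, length offsets, the replicate block and on log2(TPM + 1). It also passed without delta replicate 2 (0.86, adjusted p = 0.000304) or beta replicate 1 (0.60, adjusted p = 0.0248). It did not pass on log2(TPM + 0.1) or with any other library left out. Beta against delta did not pass (-0.43, adjusted p = 0.131), but did without delta replicate 1 (-0.59, adjusted p = 0.0330) and with DESeq2 (adjusted p = 0.0400). It also passed with no filter on low counts (-0.42, adjusted p = 0.00108).

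Of 28 other processing genes 22 were tested, and these too went both ways. Between beta and alpha 8 were higher in beta and 4 lower, with a median log2 fold change of 0.30. Between beta and delta 8 were higher and 3 lower, with a median of 0.34, and between alpha and delta 5 were higher in alpha and 8 lower, with a median of 0.00. The shares of all genes that passed are those given for the members. Atp2c1, the calcium and manganese pump of the Golgi apparatus, had means of 85.4 ± 2.25 CPM in alpha, 220 ± 12.5 in beta and 156 ± 4.35 in delta, with beta above alpha (1.36, SE 0.09, adjusted p = 3.88e-09). It was also higher in delta than in alpha (alpha minus delta -0.87, SE 0.09, adjusted p = 1.14e-06), a call lost on the TPM scales (adjusted p = 0.106 on both). Atp7a, the copper pump that supplies the secretory pathway where Pam works, was at 166 ± 0.680 CPM in beta, 67.5 ± 2.89 in alpha and 92.3 ± 7.57 in delta. Beta exceeded alpha by 1.29 (SE 0.10, adjusted p = 2.36e-08) and delta by 0.84 (SE 0.10, adjusted p = 3.25e-06). Pam CPM was lower in beta than in both, with both calls lost on the TPM scales. Its call against delta was lost under 6 of 19 other settings.

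Anpep, Dpp4 and Ece1, peptidases of the cell surface, were lower in alpha in the comparisons given here. Anpep, aminopeptidase N, was at 31.5 ± 4.79 CPM in alpha, 67.4 ± 4.37 in beta and 94.3 ± 8.88 in delta, with log2 fold changes of 1.10 for beta against alpha (SE 0.13, adjusted p = 5.01e-06) and -1.58 for alpha against delta (SE 0.13, adjusted p = 7.36e-08). Dpp4, the dipeptidyl peptidase that inactivates incretins, had means of 73.9 ± 12.8 CPM in alpha and 155 ± 11.2 in beta (1.07, SE 0.13, adjusted p = 7.61e-06), a call that missed the threshold on log2(TPM + 0.1) (adjusted p = 0.0512). Ece1, endothelin-converting enzyme, was lower in alpha than in delta (-0.86, SE 0.11, adjusted p = 1.18e-05) and missed the threshold on the TPM scales (adjusted p = 0.0535 and 0.0553). Between beta and delta, the lysosomal protease genes Ctsb (0.77, SE 0.12, adjusted p = 5.97e-05) and Ctsl (-0.73, SE 0.11, adjusted p = 3.72e-05) went opposite ways, and Ctsl missed the threshold on the TPM scales (adjusted p = 0.0808 and 0.0827). Cpn1, the catalytic subunit of carboxypeptidase N, was higher in alpha than in delta (1.33, SE 0.16, adjusted p = 7.28e-06).

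**Figure D5:**
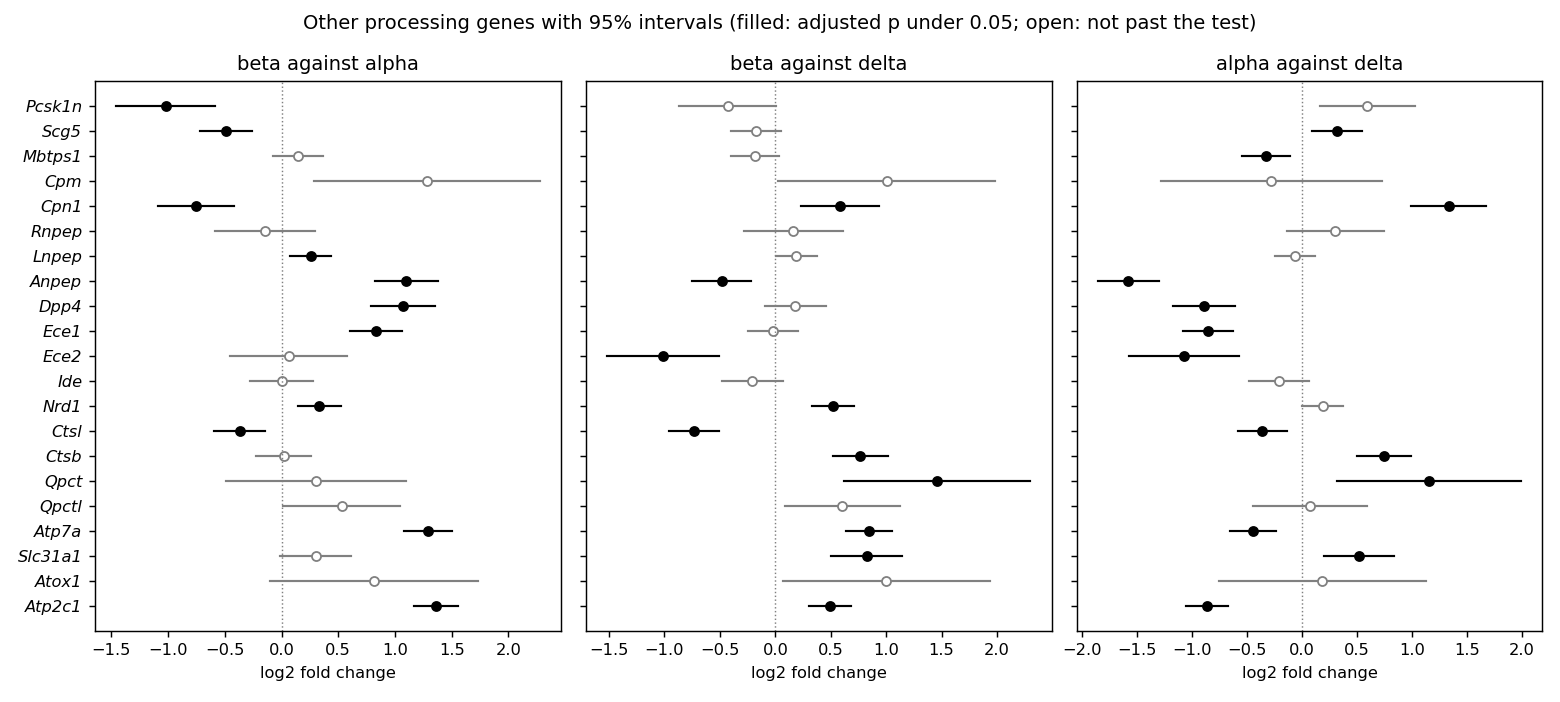
Log2 fold change of 21 of the 22 tested genes among 28 other processing genes in the 3 comparisons, with 95% intervals; filled points passed at an adjusted p under 0.05. From left to right 11, 10 and 13 points are filled, and each panel has its own horizontal scale.

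Genes with the pattern most like Pcsk1 and Pcsk2 were taken by the root mean square difference of centred log2 CPM over the 9 libraries, among 8686 other protein-coding genes at a mean of 10 CPM or more. For Pcsk1 they were Itpr2, Fhdc1, Cttnbp2, Ttc28 and Chrm3, with differences of 0.230 to 0.359. Itpr2, an intracellular calcium release channel, was at 61.6 ± 4.96 CPM in beta, 6.37 ± 1.32 in alpha and 5.597 ± 0.955 in delta. For Pcsk2 they were Tbl1x, Ppp2r5e, Hnrnpdl, Zfp281 and Rtn3, with differences of 0.0365 to 0.0636. Tbl1x, a corepressor subunit, was at 188 ± 13.1 CPM in alpha, 148 ± 7.06 in beta and 140.3 ± 5.17 in delta.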

How the data were processed

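Per the submitters' processing notes, the authors used STAR 2.5.2b, RSEM (version not given in the sources used here), R 3.5.1, DESeq2 1.22.1 and the build GRCm38.p6. Each library has its own deposited RSEM table of genes, which gives expected counts, TPM, FPKM and effective lengths per the file headers. The deposited FPKM values entered only 1 alternative for a ratio. RSEM divides reads of ambiguous origin between genes, so close relatives can borrow counts. Symbols and coordinates came from GENCODE M21, which matched all 55536 identifiers, and sequences from RefSeq.

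Expected counts were rounded, filtered with filterByExpr (15896 genes), scaled by TMM and fitted with edgeR 4.0.16 under R 4.3.3 (robust quasi-likelihood, all 9 libraries, 1 coefficient per subset, Benjamini-Hochberg over all genes, threshold 0.05). SE is of the log2 fold change, taken as its absolute value divided by the square root of the quasi-likelihood F statistic. The intervals of log2 fold changes were built on this SE. Adjusted p-values come from edgeR, except where DESeq2 is named and on log2(TPM + 1) and log2(TPM + 0.1), where limma 3.58.1 gave them. The fit was tested on simulated data. The alternatives also included DESeq2 1.42.0, other scaling factors and filters, a replicate block and leaving out libraries. Intervals use a level of 95%.

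The members and gene lists were chosen with earlier results of these data known. Named by rule were all members, Pcsk1n, Scg5, the 4 other called genes with the smallest p per comparison, and the 5 genes most like Pcsk1 and Pcsk2, for which 0.5 CPM was added before log2. The labels do not say that a replicate number marks a shared animal or day, so the main fit did not take the numbers as pairs. Deviations from the group means correlated at 0.001 to 0.112 between same-numbered libraries, all above those of most differently numbered ones or near them (-0.102 to 0.021). Whether the numbers mark a shared batch was not tested. The deposited normalised table was not used. A gene named by the rule is counted with its list and not reported here.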

Additional observations from a re-analysis of the deposited data

How the results depend on the processing

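Pcsk1 and Pcsk4 (beta against both subsets), Cpe (delta against both) and Cpd (beta against alpha) kept direction and call under all 19 other settings. With limma on log2(TPM + 1) or log2(TPM + 0.1), all genes called fell from 4231 to 1765 or 1819 for beta against alpha, from 4869 to 2446 or 2480 for beta against delta, and from 3868 to 1807 or 1782 for alpha against delta. Members called fell from 7 to 4 on either scale for beta against alpha and from 6 to 2 for alpha against delta. All of these member counts include Pcsk5. Of the other processing genes, 4, 6 and 3 were higher on log2(TPM + 1), against 8, 8 and 5 with edgeR. With limma on that scale 1, 0 and 1 were lower, against 4, 3 and 8 with edgeR; at an unadjusted p under 0.05 limma had 3, 2 and 4. Relative to edgeR these scales moved the median of all genes by 0.159 and 0.185 for beta against delta and by 0.21 and 0.245 for alpha against delta. The causes were not tested.

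Signs reversed for differences that had not passed. Furin, beta against alpha, came to -0.073 with upper-quartile factors, -0.389 with length offsets and -0.353 and -0.401 on the TPM scales, with -0.105 to 0.095 over the left-out libraries. Furin against delta came, without beta replicate 2 and delta replicate 3, to 0.083 for beta and 0.044 for alpha, and on the TPM scales to 0.067 and 0.078 for alpha, with left-out ranges of -0.169 to 0.062 and -0.18 to 0.048. Pcsk7, beta against alpha, came to -0.053 with upper-quartile factors and -0.149 without both libraries, with a left-out range of -0.148 to 0.182. Pcsk7, beta against delta, came to 0.322 with length offsets and 0.349 and 0.415 on the TPM scales, with a range of -0.4 to 0.129, and its range for alpha against delta was -0.436 to 0.093. For beta against delta, Pcsk6 came to 0.128 and 0.164 on the TPM scales and 0.028 without both libraries, Scg5 to 0.028 on both TPM scales, and Pcsk5 ranged from -1.853 to 1.953. Cpe, beta against alpha, ranged from -0.142 to 0.043. The Pcsk1 share, alpha minus delta, was -0.075 percentage points, 0.107 with expected counts and -0.394 to 0.245 over the left-out libraries.

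With the replicate block 4625, 5241 and 4294 genes were called, against 4231, 4869 and 3868 without it, and 7, 4 and 5 members. Pcsk1 lost its alpha against delta call there (adjusted p = 0.169), and Pcsk1n gained one (adjusted p = 0.0482). Not every library correlated best with its own number. Counts of 0 and 1 do not allow Pcsk5 to be ranked between beta and delta.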
